A study of Mus musculus with 24 samples.

Results

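Livers of mice without GPR120 were compared with wild-type livers on a normal diet. The samples were taken by their labels, liver of GPR120 knockout (KO) mice on normal diet (ND) and liver of wild-type (WT) mice on ND, and made up 6 of the 24 arrays of the series. GPR120 is encoded by Ffar4 and is a G protein-coupled receptor for long-chain fatty acids. It is known from adipose tissue, the gut's hormone-secreting cells and macrophages, and in liver mainly from the resident macrophages, the Kupffer cells. Hepatocytes, the main cells of the organ, store and oxidise fatty acids, make bile acids and most plasma proteins, and break down drugs through cytochrome P450 enzymes.

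The KO group held mice 718, 719 and 720 and the WT group mice 686, 687 and 690, each a separate animal that gave 1 liver array and 1 epididymal fat array. Both genotypes had the same mixed 129/Sv and C57BL/6 background and ate the same diet. Their age and litters, the way the allele was made and the time since the last meal are not given in the sources used here. Their sex is not stated in words, but epididymal fat comes only from males. The other arrays of the series are fat of the same mice and both tissues of 6 mice on a high-fat diet (HFD), and they enter here only for comparison. Whole liver was measured, so fewer cells of a type and less RNA per cell cannot be told apart in any value below.

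The 6 arrays were alike in scale. Their medians were 14.02 to 15.7 intensity units in KO and 14.9 to 18.8 in WT livers, after scaling by the authors to the same trimmed mean. The log2 ratio of the 3' to the 5' probe set of Actb, a sign of RNA integrity, was 1.24 to 1.34 in KO and 1.11 to 1.25 in WT livers. Spearman's rho between arrays was 0.947 to 0.951 within KO, 0.942 to 0.943 within WT and 0.935 to 0.944 between the genotypes. The tissue label was borne out by hepatocyte markers, with albumin (Alb) at 10229 to 14141 units on the 6 arrays. With 3 arrays per group the number of mice limits the precision of every value.

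Ffar4 itself was barely measured in liver. Its 1 probe set read 36.8, 23.1 and 21.5 units in KO mice 718, 719 and 720, and 1.07, 17.3 and 2.27 units in WT mice 686, 687 and 690, the order of mice used for every gene below. All KO values lay above all WT values. The mean stood below the level of 12.95 units required for a test (the median probe set), and without that filter the log2 difference was 2.91 ± 0.83 (limma, adjusted p = 0.0958). In the HFD livers of other mice it read 18.3, 13.5 and 15.98 in KO and 0.55, 1.19 and 1.63 in WT, again higher in every KO mouse. In fat of the same ND mice the probe set read 33.7 to 35.7 units in KO and 58.3 to 73.7 in WT. Its position with respect to the deletion is unknown here, and the liver signal therefore does not check the genotype labels.

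Of 11121 genes tested, 527 (4.74%) differed between the genotypes with a Benjamini-Hochberg adjusted p under 0.05 from limma, which is meant by a call below. In KO livers 249 (2.24%) were higher and 278 (2.50%) lower, and the median absolute log2 difference of the called genes was 0.78. At least 2-fold differences were found in 80 higher and 98 lower genes (together 1.60% of those tested). The values of the 3 KO and the 3 WT arrays did not overlap for any of the 527 called genes, as for 25.6% of all genes tested. Over all tested genes the median log2 difference, KO minus WT, was -0.05. The count rested on single mice: 195 genes were called without KO mouse 718, 196 without KO mouse 720, 199 without WT mouse 687 and 321 without KO mouse 719, and 126 of the 527 remained called without each of the 6 arrays. Leaving out WT mouse 690 or 686 gave 409 and 564. Each log2 difference below is KO minus WT ± SE from limma with n = 3 mice per group. Where leaving out an array or a change of processing ended the call of a gene discussed, this is said beside it, though not always with every such setting.

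**Figure D1:**
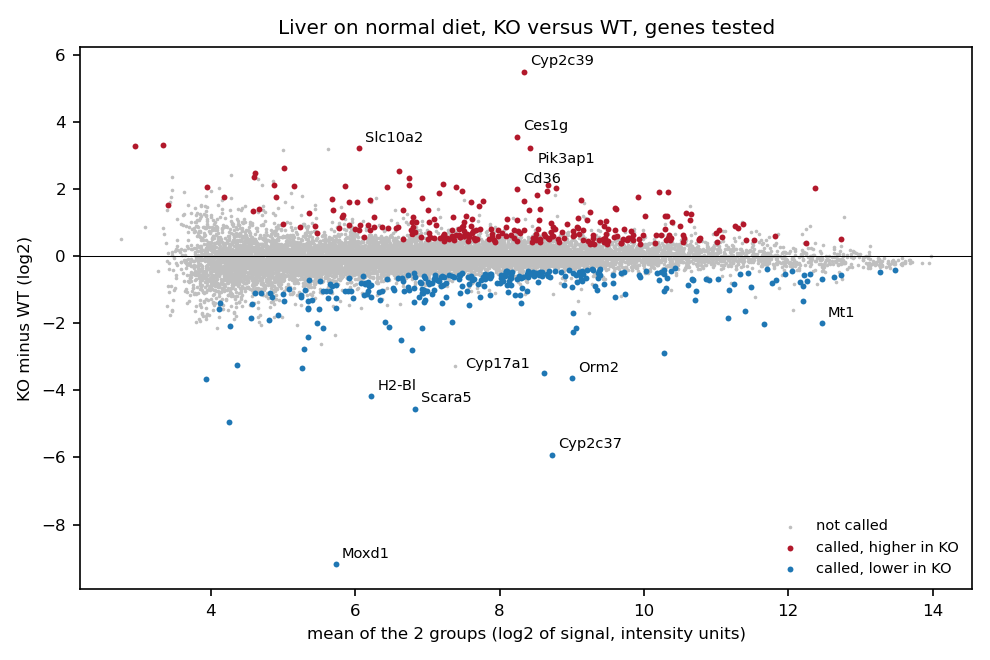
Log2 difference between KO and WT liver on ND (vertical axis) against the mean signal of both groups (horizontal axis, log2 intensity units) for the 11121 genes tested. The 249 called genes higher in KO are red and the 278 lower ones blue, Cyp2c39 at 5.50 and Moxd1 at -9.19 being the extremes.

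Among the largest differences were those in the Cyp2c family, cytochrome P450 enzymes that oxidise fatty acids, steroids and drugs and whose genes lie in a cluster near Ffar4. Cyp2c39 rose in KO livers and Cyp2c37 fell. Cyp2c39 signals were 2259, 1883 and 2370.3 in KO and 36.6, 49.5 and 59.7 in WT livers. All KO mice were far above all WT mice, a log2 difference of 5.502 ± 0.42 (45.3-fold, adjusted p = 2.25e-05). Cyp2c37 went the other way, with signals of 51.0, 45.2 and 66.3 in KO and 3079, 2608 and 4219 in WT livers. This was 60.5-fold less in KO (log2 -5.92 ± 0.21, adjusted p = 4.55e-09). Cyp2c38 signals were 954, 763 and 953 in KO and 174, 204 and 279 in WT livers, without overlap (log2 2.04 ± 0.18, adjusted p = 5.05e-05). Of 9 Cyp2c genes tested, 3 were called higher and 1 lower. Besides Cyp2c38 and Cyp2c39 the higher one was Cyp2c23 at 1.07 ± 0.27 (adjusted p = 0.0419), lost under 8 of 13 alternatives, among them leaving out WT mouse 687 or KO mouse 718, 719 or 720. Among those not called, Cyp2c29 stood at 0.89 ± 0.28 (adjusted p = 0.0928) and Cyp2c50 at -0.94 ± 0.26 (adjusted p = 0.0599). Cyp2c54 and Cyp2c68 differed by -0.05 ± 0.34 and 0.16 ± 0.30. The family's members are close in sequence, and a probe set can read more than 1 of them, so these values belong to probe sets before genes.

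By gene order in the GRCm38.p6 annotation, called genes were denser on chromosome 19, where Ffar4 lies, than elsewhere. On chromosome 19, 33 of 410 tested genes were called (8.05%), against 4.63% of 10675 genes on other chromosomes. Chromosome 6 was next with 7.50%. Within 25 genes on either side of Ffar4, 5 of 30 tested genes were called (16.7%), within 50 genes 8 of 62 (12.9%), within 100 genes 16 of 122 (13.1%) and within 200 genes 25 of 216 (11.6%). The 5 nearest were Cpeb3 (10 genes before Ffar4), Cyp2c39, Cyp2c38 and Cyp2c37 (15, 16 and 21 genes after it) and Pdlim1 (25 genes after it), Cpeb3 and Pdlim1 being named here after their values were seen. Cpeb3 and Pdlim1 were called at adjusted p = 0.0478 and 0.0276 (limma), and their alternatives are not given here. Of the 3 other probe sets of Cpeb3 above the filter level, 2 had its direction. Of the 33, 14 were higher and 19 lower in KO. Cyp2c23 is among the 33, as are Mbl2, Got1, Abcc2, Acsl5 and Lipa, which are described below with other genes. The mixed strain background is shared by both genotypes, and whether DNA around Ffar4 differs between these mice was not tested.

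**Figure D2:**
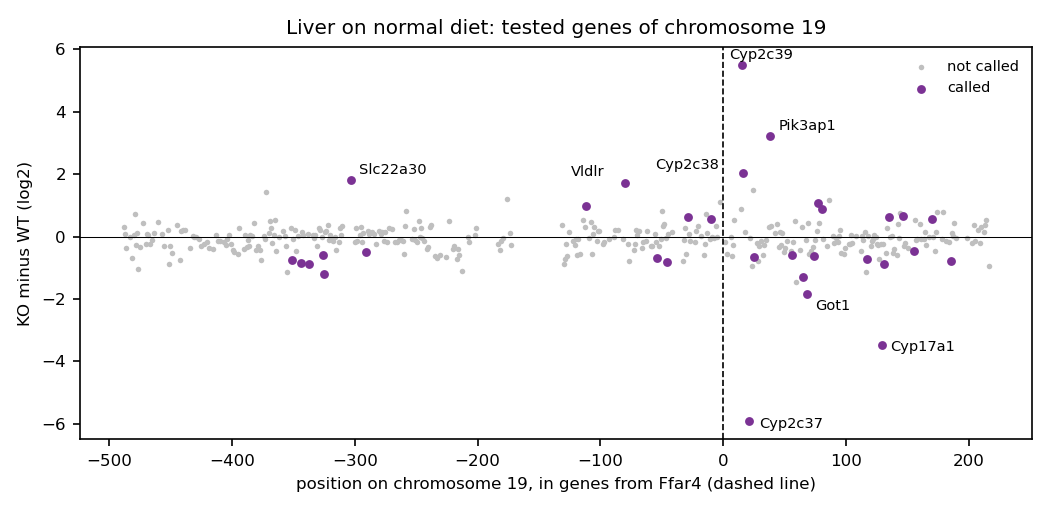
Log2 difference between KO and WT liver on ND for the tested genes of chromosome 19, in gene order counted from Ffar4 (dashed line). Called genes are purple; Cyp2c37 at -5.92, Cyp2c39 at 5.50 and Pik3ap1 at 3.22 lie within 38 genes of Ffar4.

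Pik3ap1, an adaptor that links receptors to phosphoinositide 3-kinase and is best known from B cells and macrophages, rose strongly. It lies 38 genes from Ffar4. Its signals were 1165, 915 and 1031 in KO and 98.5, 143 and 96.5 in WT livers, and the lowest KO mouse was several-fold above the highest WT mouse (log2 3.22 ± 0.18, 9.31-fold, adjusted p = 5.38e-07). It was the only call among 33 tested genes of insulin signalling, whose median log2 difference was -0.08. The insulin receptor Insr stood at -0.36 ± 0.13 (adjusted p = 0.125) and the adaptor Grb14 at 0.500 ± 0.14 (adjusted p = 0.0536). Also on chromosome 19, Cyp17a1, a steroid hydroxylase, fell. Its signals were 114, 103 and 104 in KO and 1204, 2581 and 535 in WT livers (log2 -3.47 ± 0.42, adjusted p = 0.000712). The KO values were tight and the WT values spread widely, with no overlap.

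Drug metabolism genes had the highest number of calls of any list and were also the list with the most genes tested. Of 53 tested members of a list of the receptors CAR and PXR and the enzymes of drug metabolism, 10 rose and 4 fell, and the median log2 difference was 0.16. The share called was 26.4%, near that of glucose handling (25.8%) and of acute phase and complement (24.4%). Over all tested genes it was 4.74%, beside which every list share below is to be read. Among the rises outside the Cyp2c family was Ces1g, a carboxylesterase that hydrolyses drugs and lipid esters. Its signals were 933, 1038 and 1099 in KO and 61.6, 96.3 and 108 in WT livers, without overlap (log2 3.56 ± 0.28, 11.8-fold, adjusted p = 2.51e-05). Other carboxylesterases were higher too, Ces1e at 2.12 ± 0.28 (adjusted p = 0.00138) and Ces2e at 1.37 ± 0.17 (adjusted p = 0.000889). Ces1e signals were 729, 709.7 and 1069 in KO and 214, 117 and 269 in WT livers. Cyp2b9, a P450 enzyme known as female-predominant in mouse liver, read 119, 24.1 and 122 in KO and 9.35, 10.7 and 15.1 in WT livers. KO mouse 719 was much nearer to WT than the other KO mice, and because the WT mean was under the filter level the rise is given as at least 5.18-fold (adjusted p = 0.00984). Aldehyde dehydrogenases rose as well, Aldh3a2 by 1.26 ± 0.17 (adjusted p = 0.00126) and Aldh1a7 by 0.97 ± 0.11 (adjusted p = 0.000475). Cyp3a13 fell by 1.004 on the log2 scale (adjusted p = 0.000712). The sulfotransferases Sult5a1 at -1.39 ± 0.26 and Sult1d1 at -0.92 ± 0.19 (adjusted p = 0.0121 and 0.0155) also fell, the former lost without KO mouse 718 and the latter lost without WT mouse 687 or KO mouse 718 or 720. The list had 7 to 13 rises without any 1 array, the fewest without WT mouse 687 or KO mouse 718, and 2 falls without KO mouse 718.

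**Figure D3:**
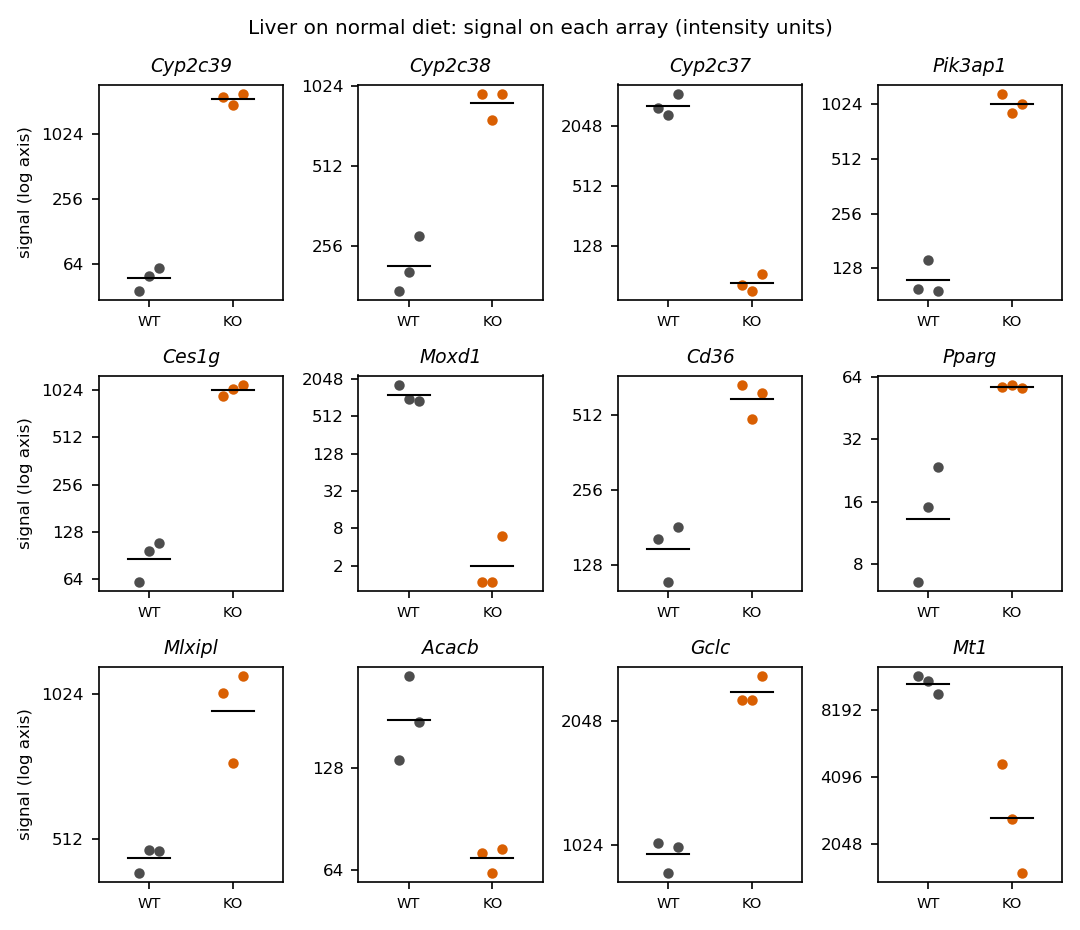
Signal of 12 genes on each liver array on ND (vertical axes, intensity units on log scales that do not start at 0) in WT (grey) and KO (orange) mice. Bars mark the geometric mean of 3 mice and signals under the floor of 1.1 are drawn at it; KO and WT points do not overlap in any panel.

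Among glutathione and antioxidant genes, Gclc, Gsta2 and Gsta4 were higher in KO livers and the metallothioneins Mt1 and Mt2 were lower. Gclc, the catalytic subunit of the rate-limiting enzyme of glutathione synthesis, had signals of 2296, 2297 and 2619.9 in KO and 1036, 877 and 1014 in WT livers. The KO livers were uniformly higher (log2 1.30 ± 0.14, 2.47-fold, adjusted p = 0.000348). Gsta2, a glutathione transferase, was higher at 1.40 ± 0.26 (adjusted p = 0.0111), lost without WT mouse 687 or KO mouse 718. Gsta4 was higher at 1.63 ± 0.35 (adjusted p = 0.0214), lost under 6 of 13 alternatives, among them leaving out WT mouse 687 or 690 or KO mouse 718, 719 or 720. Mt1 and Mt2, metallothioneins that bind zinc and are induced by metals and glucocorticoids, fell. Mt1 signals were 4684, 2667 and 1530.3 in KO and 11564, 11069.5 and 9632 in WT livers, the KO mice spreading widely and all staying below WT (log2 -2.004 ± 0.33, adjusted p = 0.0055). The Mt1 call was lost with its probe sets averaged: its other probe set above the filter level ran the other way. Mt2 signals were 2605, 1467 and 908 and 8386, 5944 and 4698, again with no overlap (log2 -2.03 ± 0.40, adjusted p = 0.0147), lost without KO mouse 720. Of 34 tested glutathione and antioxidant genes, 4 rose and 2 fell with a median of 0.08. The list had 1 rise without WT mouse 687 or KO mouse 718, 2 rises without KO mouse 719 or 720, and 1 fall without KO mouse 720.

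Transcripts of acute-phase proteins, which hepatocytes secrete in inflammation, were lower in KO livers where they differed. Of 45 tested acute phase and complement genes, 11 fell, none rose and 40 had a negative log2 difference, with a median of -0.29 against -0.05 over all genes. Called members thus made up 24.4% of the list, against 2.50% of all tested genes called lower. Orm2, an orosomucoid, showed the largest fall. Its signals were 115, 148 and 154 in KO and 3091, 1217 and 1369 in WT livers, and the highest KO mouse lay far under the lowest WT mouse (log2 -3.65 ± 0.35, 12.5-fold, adjusted p = 0.000119). Lcn2, lipocalin 2, an iron-siderophore binding protein, had 338, 196 and 231 in KO and 1189, 815 and 1372 in WT livers, without overlap (log2 -2.15 ± 0.23, adjusted p = 0.000345). Serpina3n, a protease inhibitor, read 863, 1052 and 693 in KO and 1624, 1513 and 2166 in WT livers (log2 -1.03 ± 0.17, adjusted p = 0.00653). These 3 kept their call under every alternative. Saa2, serum amyloid A2, had 446, 367 and 294 in KO livers and a wide 8499, 728 and 3219.9 in WT livers. WT mouse 687 was near the KO values, and the log2 difference of -2.90 ± 0.62 (adjusted p = 0.0208) was lost under 5 of 13 alternatives, among them leaving out WT mouse 690 or KO mouse 718, 719 or 720.

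The remaining falls of the acute phase list were smaller. Orm1 differed by -0.67 ± 0.13 (adjusted p = 0.0119), Itih3, an inter-alpha-trypsin inhibitor chain, by -0.63 ± 0.12 (adjusted p = 0.0111) and Hc, complement component 5, by -0.56 ± 0.10 (adjusted p = 0.0117). Each of these calls was lost without KO mouse 720. Mbl2, a mannose-binding lectin, was lower by 0.70 (adjusted p = 0.0207), C9, a pore-forming complement component, by 0.54 (adjusted p = 0.0273), Fgb, the fibrinogen beta chain, by 0.40 (adjusted p = 0.0276) and Il1r1, the interleukin 1 receptor, by 1.16 on the log2 scale (adjusted p = 0.0324). Each of these 4 calls was lost without KO mouse 720 and under several other alternatives. In the whole list 3 genes were called lower without KO mouse 720, 6 without KO mouse 719, 7 without KO mouse 718 and 9 to 10 without any 1 WT mouse. Hepatocyte markers moved in the same direction: their summed signal was 172246 to 198913 units on the KO arrays and 211872 to 217611 on the WT arrays, 5 of 22 had a positive log2 difference, their median was -0.20 and Fgb alone was called. With quantile normalization the hepatocyte marker median was 0.00 and the acute phase list still had 10 falls and a median of -0.24.

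Promoter sequences of the 3 inducible acute-phase genes that changed with diet and genotype, and of both metallothionein genes, are shown because these genes fell by the most in their lists. They come from RefSeq (GRCm38.p6) and run 5' to 3' on the gene's strand over the 250 bases before the transcription start. In the acute-phase promoters, capitals mark the motif TTGCNNAA, of the type bound by C/EBP factors, which drive acute-phase genes, searched on both strands. The coordinates are chr4:63362199-63362448 (plus strand) for Orm2, chr7:46751583-46751832 (plus strand) for Saa2 and chr2:32387740-32387989 (minus strand) for Lcn2.
Orm2: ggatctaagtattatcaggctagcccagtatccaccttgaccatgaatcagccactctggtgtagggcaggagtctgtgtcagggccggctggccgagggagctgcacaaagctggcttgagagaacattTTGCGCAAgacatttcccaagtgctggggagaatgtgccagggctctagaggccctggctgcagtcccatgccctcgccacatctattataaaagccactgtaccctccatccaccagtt
Saa2: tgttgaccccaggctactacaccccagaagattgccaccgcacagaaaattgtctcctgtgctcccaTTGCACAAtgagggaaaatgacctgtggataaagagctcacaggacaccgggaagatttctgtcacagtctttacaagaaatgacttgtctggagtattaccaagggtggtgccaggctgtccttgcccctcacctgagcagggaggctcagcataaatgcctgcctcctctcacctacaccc
Lcn2: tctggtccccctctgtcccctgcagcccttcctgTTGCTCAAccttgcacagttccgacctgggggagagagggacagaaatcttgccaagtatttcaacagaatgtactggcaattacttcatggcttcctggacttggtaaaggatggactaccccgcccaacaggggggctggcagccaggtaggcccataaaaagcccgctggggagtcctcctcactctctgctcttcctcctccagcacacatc
The match began 120 bases before the start in Orm2, 183 in Saa2 and 216 in Lcn2. Of the 11 acute phase genes called lower, 10 had a promoter in the RefSeq table and 6 held the motif in at least 1 promoter, among them Fgb, C9 and Il1r1. Serpina3n, Itih3, Hc and Mbl2 did not hold it. Of all 32841 promoters of this length 9.57% held it, a share of promoters and not of genes. Acute phase genes not called lower were not searched, so whether the motif goes with the falls was not tested. In the metallothionein promoters capitals mark TGCACNC or TGCGCNC, the core of the metal response element, on both strands. The coordinates are chr8:94178839-94179088 for Mt1 and chr8:94172368-94172617 for Mt2, both on the plus strand.
Mt1: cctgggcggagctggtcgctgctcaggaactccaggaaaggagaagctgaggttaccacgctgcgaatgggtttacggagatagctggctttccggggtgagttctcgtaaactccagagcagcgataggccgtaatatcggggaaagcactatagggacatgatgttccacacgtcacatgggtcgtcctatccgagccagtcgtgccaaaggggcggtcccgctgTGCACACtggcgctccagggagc
Mt2: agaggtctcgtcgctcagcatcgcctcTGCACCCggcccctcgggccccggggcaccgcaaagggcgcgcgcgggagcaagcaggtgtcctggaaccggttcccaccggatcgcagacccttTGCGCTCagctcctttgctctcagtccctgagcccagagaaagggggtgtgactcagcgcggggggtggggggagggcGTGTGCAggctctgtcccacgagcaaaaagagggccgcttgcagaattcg
Mt1 had 1 match in this window and Mt2 had 3, and 21.4% of all promoters held at least 1. A match describes these letters and is not evidence of a bound site.

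Among immediate early and stress-induced genes, which respond to handling, fasting and hypoxia as well as to inflammation, 4 of 46 fell and 1 rose, and the median was -0.06. The falls were Lcn2, Mt1, Mt2 and Ddit4, an inhibitor of mTOR signalling induced by stress and glucocorticoids. Ddit4 read 242, 229.7 and 195 in KO and 661, 2147 and 822 in WT livers, WT mouse 687 being the highest (log2 -2.25 ± 0.51, adjusted p = 0.0258), lost under 5 of 13 alternatives, among them leaving out WT mouse 687 or KO mouse 718, 719 or 720. The rise was Btg1, an antiproliferative factor, at 0.63 ± 0.16 (adjusted p = 0.0395), lost under 8 of 13 alternatives, among them leaving out WT mouse 687 or 690 or KO mouse 718, 719 or 720, named here after its values were seen. The list had 2 falls without KO mouse 720, and 7 falls and 2 rises with the 6 arrays alone. Of 37 genes of the unfolded protein and heat shock response 1 rose, Fkbp4, a co-chaperone of steroid receptors, at 0.81 ± 0.16 (adjusted p = 0.0145). That call was lost with its probe sets averaged. Of the 37, 27 had a positive log2 difference and the median was 0.25 against -0.05 over all genes. Without WT mouse 690, 5 of them rose.

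Genes of fatty acid uptake and storage moved both ways, with Cd36 and Fitm1 higher and Pnpla2 and Plin3 lower in KO livers. Of 26 tested genes of fatty acid uptake, binding and lipid droplets, 2 rose and 2 fell (15.4% called). Cd36, a fatty acid transporter of the plasma membrane, had signals of 676, 495 and 630.5 in KO and 163, 109.8 and 182 in WT livers. All KO mice were above all WT mice by a wide margin (log2 2.01 ± 0.20, 4.02-fold, adjusted p = 0.000205), and both of its other probe sets above the filter level were higher too. Fitm1, which helps to form lipid droplets, read 274, 331 and 409.6 in KO and 64.7, 64.8 and 155 in WT livers (log2 1.95 ± 0.28, adjusted p = 0.00269). WT mouse 690 was the nearest to the KO mice. Pnpla2, the adipose triglyceride lipase, fell from 369.7, 475 and 489.7 in WT to 215, 229.6 and 242 in KO livers (log2 -0.95 ± 0.16, adjusted p = 0.00714), lost with its probe sets averaged. Plin3, a coat protein of lipid droplets, stood at -0.79 ± 0.17 (adjusted p = 0.0196), lost without WT mouse 687 or KO mouse 718 or 720.

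Pparg, the nuclear receptor that drives fat storage genes and is a master regulator of adipocytes, rose from a low level. Its signals were 56.8, 58.1 and 56.6 in KO and 6.59, 15.0 and 23.4 in WT livers, nearly equal among the KO mice and spread among the WT mice (log2 2.11 ± 0.36, adjusted p = 0.00682). It was the only call among 4 tested of 9 adipocyte markers with a probe set. Adipoq, the adiponectin gene that defines adipocytes, read 26.2, 16.8 and 1.52 in KO and 17.4, 10.6 and 27.4 in WT livers, low and overlapping. The summed signal of the adipocyte markers was 553 to 1141 units in KO and 681 to 1060 in WT livers, which overlapped. Fabp4 stood at 0.52 ± 0.30 (adjusted p = 0.355) and Cidec at -1.03 ± 0.43 (adjusted p = 0.19). The 2 members called among 8 tested fatty acid and metabolite sensing receptors were Pparg and Sucnr1, the succinate receptor. Sucnr1 signals were 420.0, 346 and 290.2 in KO and 173, 102 and 105 in WT livers, without overlap (log2 1.502 ± 0.24, adjusted p = 0.00525). Ffar2, a receptor for short-chain fatty acids, read 4.66, 8.84 and 13.1 in KO and 17.0, 31.1 and 23.2 in WT livers and was not called (adjusted p = 0.142).

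Fatty acid and triglyceride synthesis genes moved both ways, with 4 rises and 1 fall among 29 tested (17.2% called) and a median of 0.22. Mlxipl encodes ChREBP, the transcription factor that turns on lipogenic genes in response to glucose. Its signals were 1030.0, 735 and 1114 in KO and 436, 486 and 482 in WT livers, and all KO mice were above WT (log2 1.02 ± 0.16, adjusted p = 0.00516). Me1, malic enzyme, which supplies NADPH for fatty acid synthesis, read 795, 1349.7 and 1759.9 in KO and 364, 543 and 487 in WT livers (log2 1.43 ± 0.26, adjusted p = 0.00873). KO mouse 718 was the lowest of the KO group and still above the highest WT mouse. The list had 2 rises without KO mouse 718. Acsl5, an acyl-CoA synthetase, stood at 0.56 ± 0.10 (adjusted p = 0.0108), lost without KO mouse 718. Pklr, liver pyruvate kinase and a target of ChREBP, was higher at 1.01 ± 0.24 (adjusted p = 0.0314), lost under 7 of 13 alternatives, among them leaving out WT mouse 686 or 687 or KO mouse 718, 719 or 720. Acacb, the acetyl-CoA carboxylase whose product inhibits fatty acid entry into mitochondria, fell from 135, 238 and 174 in WT to 71.6, 62.9 and 73.8 in KO livers. The groups were well apart (log2 -1.36 ± 0.22, adjusted p = 0.00491), but the call was lost with its probe sets averaged.

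Of 39 tested fatty acid oxidation genes 3 were called higher and 2 lower, 28 had a positive log2 difference, and the median was 0.16 against -0.05 over all genes. Decr2, a reductase of peroxisomal oxidation, fell from 1518, 1742 and 2010.1 in WT to 892, 989 and 849 in KO livers, a difference kept under every alternative (log2 -0.94 ± 0.16, adjusted p = 0.00732). Cyp4a31, a fatty acid omega-hydroxylase, stood at -0.69 ± 0.12 (adjusted p = 0.00846), lost with its probe sets averaged. The rises were Vnn1, a pantetheinase, at 0.61 ± 0.13, Acot2, a mitochondrial acyl-CoA thioesterase, at 1.14 ± 0.25, and Mgll, monoglyceride lipase, at 0.56 ± 0.14 (adjusted p = 0.0194, 0.0244 and 0.0358). None of the 3 rises kept its call without KO mouse 718 or without KO mouse 720, and 5 genes rose without WT mouse 690. In cholesterol synthesis and uptake 1 of 23 genes was called. This was Hmgcs1, an early enzyme of the pathway, with 2323, 1982 and 2542 in KO and 481, 717 and 636 in WT livers, without overlap (log2 1.91 ± 0.36, adjusted p = 0.0121), lost with its probe sets averaged or without KO mouse 720. Stard4, a cholesterol transfer protein, stood at 1.09 ± 0.30 (adjusted p = 0.0564) and Tm7sf2, a sterol reductase, at 0.52 ± 0.17 (adjusted p = 0.0972).

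In bile acid synthesis and transport, 2 of 26 tested genes rose and 2 fell (15.4% called). Slc10a2, the sodium-dependent bile acid transporter best known from ileum and bile ducts, had signals of 121, 257 and 231 in KO and 17.1, 17.0 and 31.2 in WT livers. KO mouse 718 was the lowest of its group and still well above WT (log2 3.21 ± 0.47, 9.26-fold, adjusted p = 0.00289). Abcc3, an exporter of conjugated compounds on the blood side of hepatocytes, read 1898, 2117 and 1809 in KO and 835, 754 and 927 in WT livers (log2 1.21 ± 0.13, adjusted p = 0.000348). Its rise was kept under every alternative. Cyp7a1, the rate-limiting enzyme of bile acid synthesis, fell from 1317, 911 and 539 in WT to 152, 411 and 305 in KO livers. Both groups spread widely without overlapping (log2 -1.70 ± 0.40, adjusted p = 0.0296), lost under 6 of 13 alternatives, among them leaving out WT mouse 686 or 687 or KO mouse 718 or 720. Abcc2, which exports conjugates into bile, stood at -0.61 ± 0.15 (adjusted p = 0.0377), lost under 9 of 13 alternatives, among them leaving out WT mouse 686, 687 or 690 or KO mouse 718, 719 or 720. Nr1h4, the bile acid receptor FXR, stood at -0.41 ± 0.11 and was not called (adjusted p = 0.0594). Of 8 bile duct markers with a probe set, 3 were tested (Cdh1, Epcam and Sox9), and Krt19 and Krt7, keratins that define the duct cells, had group means of 7.93 and 13.7 units in KO and 15.4 and 13.5 in WT livers. The summed signal of the 8 markers was 251 to 325 units in KO and 362 to 522 in WT livers. Most of it came from Cdh1, E-cadherin, with 180, 217 and 167 in KO and 305, 424 and 269 in WT livers. Of the 3 tested markers 2 had a positive log2 difference, and the median was 0.33. Cdh1 was called lower at -0.80 ± 0.21 (adjusted p = 0.0435), lost under 8 of 13 alternatives, among them leaving out WT mouse 686 or 687 or KO mouse 718, 719 or 720.

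Glucose handling genes moved both ways, 5 of 31 being higher and 3 lower (25.8% called), with a median of 0.20. Pygl, liver glycogen phosphorylase, which releases glucose from glycogen, had signals of 3351, 3022 and 3701 in KO and 2249.6, 1636 and 1796 in WT livers. All KO mice lay above all WT mice, and the call was kept under every alternative (log2 0.83 ± 0.13, adjusted p = 0.00475). Gpt2, an alanine aminotransferase that feeds gluconeogenesis, fell from 4392, 4626 and 4883 in WT to 2457, 2634 and 3474 in KO livers (log2 -0.71 ± 0.12, adjusted p = 0.00758), lost with its probe sets averaged. Slc37a4, the glucose 6-phosphate transporter, stood at -0.69 ± 0.13 (adjusted p = 0.0122), lost without KO mouse 718 or 720. Khk, fructokinase, was higher at 0.70 ± 0.16 (adjusted p = 0.0273), lost under 5 of 13 alternatives, among them leaving out WT mouse 687 or KO mouse 718 or 720. Gbe1, the glycogen branching enzyme, at 1.07 ± 0.25, and Slc2a2, the liver glucose transporter, at 0.89 ± 0.21, were also called (adjusted p = 0.0276 and 0.0304). Neither kept its call when WT mouse 687 or any 1 KO mouse was left out. The list had 1 rise without WT mouse 687, KO mouse 718 or KO mouse 720, 2 without KO mouse 719 and 3 without WT mouse 686. It had 1 fall without KO mouse 718 or 720 and 2 without WT mouse 686 or 690.

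Amino acid and urea cycle genes had more falls than rises. Of 42 tested, 5 fell and 1 rose (14.3% called), 11 had a positive log2 difference and the median was -0.26. Asl, argininosuccinate lyase of the urea cycle, fell from 6431, 6589 and 6325 in WT to 3455, 3867 and 3138 in KO livers, with tight WT values (log2 -0.89 ± 0.16, adjusted p = 0.00912). It kept its call under every alternative. Aass, an enzyme of lysine breakdown, stood at -0.73 ± 0.14 (adjusted p = 0.0121), lost without KO mouse 720. Got1, the cytosolic aspartate aminotransferase, read 1202, 1618 and 774 in KO and 6376, 2413 and 4441 in WT livers, spreading widely in both groups (log2 -1.83 ± 0.44, adjusted p = 0.0334), lost under 6 of 13 alternatives, among them leaving out WT mouse 686 or 690 or KO mouse 718 or 720. The urea cycle enzymes Ass1 at -1.17 ± 0.30 and Arg1 at -0.47 ± 0.12 were called at adjusted p = 0.0427 and 0.0446, though not when KO mouse 718, 719 or 720 or WT mouse 687 or 690 was left out, and Cps1 was not called (-0.35 ± 0.11, adjusted p = 0.0965). With quantile normalization, under which the hepatocyte markers no longer differed in their median, the median of the list was -0.15 and 4 genes fell. The list had 1 fall without KO mouse 720, 2 without KO mouse 718 or WT mouse 690, and 3 without KO mouse 719 or WT mouse 686 or 687. In oxidative phosphorylation and the citrate cycle 2 of 48 genes fell, both citrate cycle enzymes: Fh1, fumarase, at -0.79 ± 0.10 (adjusted p = 0.00112), and Idh3a, an isocitrate dehydrogenase subunit, at -0.68 ± 0.09 (adjusted p = 0.00143). Fh1 signals were 2818, 2707 and 2471 in KO and 4664, 4193 and 4979 in WT livers, and its call was kept throughout, while that of Idh3a was lost with its probe sets averaged.

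**Figure D4:**
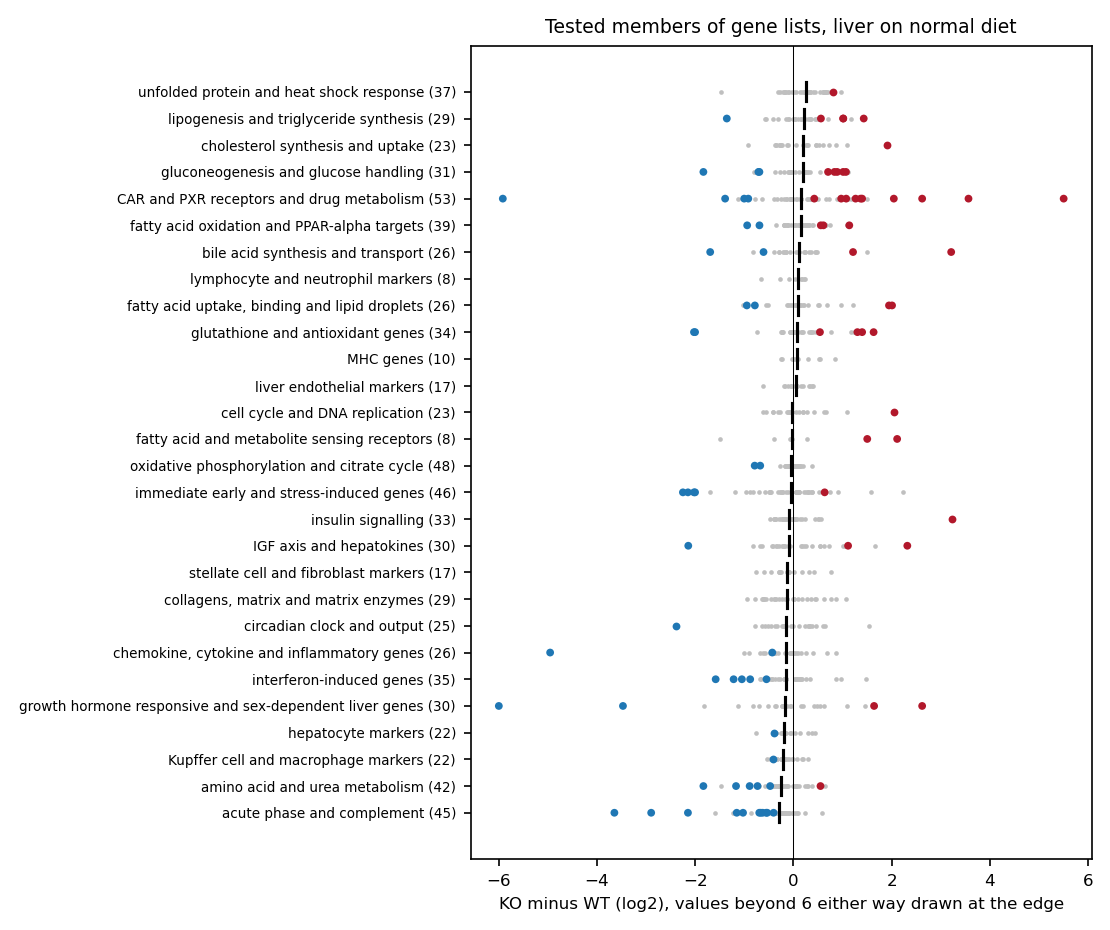
Log2 difference between KO and WT liver on ND (horizontal axis) of the tested members of each gene list with at least 8 of them, the number tested in parentheses. Red and blue points were called higher and lower, grey points were not called and black bars are list medians, lowest in acute phase and complement at -0.29.

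Interferon-induced genes had 5 falls and no rise among 35 tested (14.3% called), at a median of -0.16. Xaf1, a pro-apoptotic interferon target, read 18.4, 26.1 and 25.9 in KO and 73.8, 83.2 and 54.4 in WT livers (log2 -1.58 ± 0.23, adjusted p = 0.00296). Its call was lost with its probe sets averaged, under which it stood at 0.30. Psmb8 and Psmb9, subunits of the immunoproteasome, stood at -0.88 ± 0.17 and -1.05 ± 0.27 (adjusted p = 0.0139 and 0.0407), and Parp14, an ADP-ribosyltransferase, at -0.55 ± 0.12 (adjusted p = 0.0256). Psmb8 lost its call without WT mouse 687 or KO mouse 718. Psmb9 lost it under 8 of 13 alternatives, among them leaving out WT mouse 686 or 687 or KO mouse 718 or 720. Parp14 was lost under 7 of 13 alternatives, among them leaving out WT mouse 686 or 687 or KO mouse 718, 719 or 720. With its probe sets averaged Parp14 stood at 0.13. The number of falls in the list was 1 without WT mouse 687 or KO mouse 718, 2 without WT mouse 686 or KO mouse 720, and 8 without WT mouse 690, and 2 genes rose without WT mouse 686. H2-Bl, a nonclassical MHC class I gene, fell strongly from 239, 359 and 319.8 in WT to 23.2, 8.92 and 22.8 in KO livers (log2 -4.17 ± 0.38, adjusted p = 6.86e-05). MHC class I genes are close in sequence, and of 10 tested genes on the MHC list none was called. H2-D1 stood at -0.26 ± 0.10 and the class II gene H2-Eb1 at 0.85 ± 0.31 (adjusted p = 0.14 and 0.132).

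Among markers of Kupffer cells, endothelium, stellate cells, lymphocytes and neutrophils, calls were no more frequent than over all tested genes (4.74%). The lists are too short to tell a lower share from that one. Of 22 tested Kupffer cell and macrophage markers 1 fell, Ctss, the protease cathepsin S, from 727, 649.9 and 686 in WT to 526, 502 and 516 in KO livers (log2 -0.42 ± 0.09, adjusted p = 0.0245), lost under 7 of 13 alternatives, among them leaving out WT mouse 686 or 690 or KO mouse 718, 719 or 720. Of the 22 markers 4 had a positive log2 difference, and the list's median was -0.22. Its summed signal was 6099 to 7508 units in KO and 6562 to 9893 in WT livers, which overlapped. Cd163 stood at -0.53 ± 0.20 and C1qc at -0.37 ± 0.12 (adjusted p = 0.151 and 0.0843). None of 17 tested endothelial markers, 17 stellate cell and fibroblast markers and 8 lymphocyte and neutrophil markers was called. Their summed signals were 3035 to 3752 units in KO and 3106 to 3700 in WT livers for endothelium, 6063 to 6560 and 5904 to 7649 for stellate cells, and 205 to 386 and 284 to 440 for lymphocytes and neutrophils. Among 29 matrix genes none was called either. Of 26 tested chemokine and inflammatory genes 2 fell. Cxcl14, a chemokine, read 9.63, 1.84 and 0.9 in KO and 125, 75.1 and 61.8 in WT livers, at least 6.45-fold lower (adjusted p = 0.00138), and Tnfrsf1a, the TNF receptor 1, stood at -0.43 ± 0.11 (adjusted p = 0.0375), lost under 7 of 13 alternatives, among them leaving out WT mouse 687 or 690 or KO mouse 718, 719 or 720. Alas2, the heme synthesis enzyme of red cell precursors, was the only call among 5 tested markers of other tissues, at 1.02 ± 0.24 (adjusted p = 0.0309), lost under 7 of 13 alternatives, among them leaving out WT mouse 687 or 690 or KO mouse 718, 719 or 720.

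Secreted regulators included 2 rises and 1 fall among 30 tested genes of the IGF axis and hepatokines. Enho, which encodes adropin, a secreted peptide linked to energy balance, fell from 300.2, 223 and 245 in WT to 60.4, 67.0 and 47.1 in KO livers (log2 -2.14 ± 0.25, 4.41-fold, adjusted p = 0.000574). Inhbc, the activin C subunit, rose from 182, 146 and 237 in WT to 416, 329 and 466 in KO livers (log2 1.11 ± 0.18, adjusted p = 0.0055). Both kept their call under every alternative. Angptl8, an insulin-responsive inhibitor of lipoprotein lipase, read 199, 145 and 337 in KO and 93.3, 28.0 and 30.0 in WT livers and only just passed the test (log2 2.32 ± 0.62, adjusted p = 0.0498), lost under 9 of 13 alternatives, among them leaving out WT mouse 687 or 690 or KO mouse 718, 719 or 720. Of 30 tested growth hormone responsive and sex-dependent genes 2 fell and 2 rose. Moxd1, a monooxygenase-like protein, was at background in most KO livers, with 0.49, 0.69 and 6.02 units against 1624, 985 and 908 in WT livers. Its fall was at least 87.5-fold, the geometric mean of WT over the filter level (adjusted p = 2.51e-05), and the fitted log2 difference of -9.19 ± 0.74 depends on the floor. The other fall was Cyp17a1 and the rises were Cyp2b9 and Hsd3b5. Hsd3b5, a steroid dehydrogenase known as male-predominant, read 539, 245 and 346 in KO and 214, 98.2 and 71.4 in WT livers (log2 1.64 ± 0.43, adjusted p = 0.0479), lost under 9 of 13 alternatives, among them leaving out WT mouse 687 or 690 or KO mouse 718, 719 or 720. In the circadian clock list 1 of 25 genes was called. Ciart, a repressor in the clock, read 17.5, 5.22 and 35.7 in KO and 69.3, 51.4 and 135 in WT livers (log2 -2.40 ± 0.57, adjusted p = 0.031), lost under 8 of 13 alternatives, among them leaving out WT mouse 686, 687 or 690 or KO mouse 718 or 719. Clock itself stood at 0.60 ± 0.23 (adjusted p = 0.156).

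The remaining large differences fell outside the lists. Scara5, a scavenger receptor that takes up ferritin, read 18.5, 16.9 and 37.2 in KO and 628, 512 and 459.8 in WT livers (log2 -4.55 ± 0.61, adjusted p = 0.00138). Kcnk1, a potassium channel, read 8.67, 16.8 and 10.6 and 133, 75.0 and 159, at least 8.25-fold lower (adjusted p = 0.00516). The KO signals of both genes were low. Ss18l1, a chromatin remodelling subunit of neurons, differed by -2.77 ± 0.35 (adjusted p = 0.000947). Gnat1, the rod transducin, fell by at least 3.51-fold (adjusted p = 0.00861). Slc8a1, a sodium-calcium exchanger, was lower at -2.80 ± 0.51 (adjusted p = 0.0094), lost with its probe sets averaged. Cd207, langerin, was at least 3.43-fold lower (adjusted p = 0.02), lost without WT mouse 687 or KO mouse 719 or 720. The falls of Abhd1 at -2.51 ± 0.51 and Pde6h at -2.13 ± 0.43 were called at adjusted p = 0.016 and 0.0151, the former lost without KO mouse 718 or 720 and the latter lost with its probe sets averaged or without WT mouse 687 or KO mouse 719 or 720.

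Among rises outside the lists, Lgals1, galectin 1, a sugar-binding protein of connective tissue and immune cells, read 401, 236 and 398 in KO and 113, 63.4 and 70.2 in WT livers (log2 2.07 ± 0.24, adjusted p = 0.000476). Aqp8, a water channel, rose from 74.3, 65.4 and 71.4 in WT to 321, 258 and 362 in KO livers (log2 2.15 ± 0.26, adjusted p = 0.000712). Mme, the peptidase neprilysin, was higher at 2.11 ± 0.38 (adjusted p = 0.0096) and A2ml1, a protease inhibitor, at 2.53 ± 0.40 (adjusted p = 0.00482). These 4 kept their call under every alternative. Hectd2os, a noncoding RNA gene on chromosome 19, was at least 4.43-fold higher (adjusted p = 0.00134). Kbtbd11 and Clec2h rose from WT levels under the filter to 12.3, 29.2 and 54.5 and 21.9, 25.9 and 20.9 units, at least 2.08-fold and 1.76-fold (adjusted p = 0.0202 and 0.00846). The Kbtbd11 call was lost under 6 of 13 alternatives, among them leaving out WT mouse 690 or KO mouse 719 or 720, and that of Clec2h was lost on the scale log2(signal + 16), with its probe sets averaged or with the 6 arrays alone. Dct, a melanin synthesis enzyme, was at least 3.93-fold higher (adjusted p = 0.0214), lost under 5 of 13 alternatives, among them leaving out WT mouse 686 or KO mouse 719 or 720. Spc25, a kinetochore protein, stood at 2.11 ± 0.44 (adjusted p = 0.0181), lost under 6 of 13 alternatives, among them leaving out WT mouse 687 or 690 or KO mouse 718 or 720. Ccnf, a cyclin, stood at 2.06 ± 0.54 and Olig1, a neural transcription factor, at 2.09 ± 0.54 (adjusted p = 0.0467 and 0.0439), and neither kept its call when any 1 KO mouse or WT mouse 690 was left out. Ccnf lost its call under 9 of 13 alternatives and Olig1 under 8. Mcm6, a replication helicase subunit, was the only call among 23 tested cell cycle genes (at least 2.02-fold, adjusted p = 0.0334), lost under 9 of 13 alternatives, among them leaving out WT mouse 687 or 690 or KO mouse 718, 719 or 720.

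The same comparison on HFD, with other mice, called 742 of the 11121 genes (6.67%). Of these, 115 were called in the same direction on ND, 21.8% of the ND calls and 15.5% of the HFD calls. The largest differences shared by the diets were Moxd1, Cyp2c37, H2-Bl, Lgals1, Cyp2b9, Pik3ap1, Ces1g and Cyp2c39. On HFD their log2 differences were -9.60, -5.74, -2.86, 4.26, 5.37, 3.45, 2.51 and 7.89, in that order. The HFD signals of Cyp2c37 were 73.5, 80.8 and 50.9 in KO and 3691, 3008 and 4120.5 in WT livers, and those of Cyp2c39 were 2124, 2053 and 1682 and 17.9, 3.37 and 9.14. These genes were picked because they were called in the same direction on both diets. Their separation on HFD was thus a condition of the choice and is not independent support. Of the 33 calls on chromosome 19, 9 were also called in the same direction on HFD.

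Other genotype differences were not the same on both diets. The interaction of genotype and diet was called for 111 of 11121 genes (0.998%), for 42 of them with a higher KO minus WT difference on ND than on HFD and for 69 with a lower one, and 42 of the 527 genes called on ND were among the 111. Without 1 array of the ND groups the count was 35 (without KO mouse 720) to 121, and it was 42, 56 and 68 without KO mouse 718, WT mouse 687 and KO mouse 719. The arrays of the diets also differed in the log2 3' to 5' ratio of Actb. It was 1.11 to 1.34 in the ND livers, and 1.69 to 1.71 in KO and 1.99 to 2.09 in WT livers on HFD. Whether RNA integrity bears on the interaction was not tested. For 9 genes the genotypes were called in opposite directions on the diets, and the interaction was called for each: Orm2, Saa2, Lcn2, Atp10d, Ctss, Hsd3b5, Igha, Slc23a1 and Slc5a3, the last 2 named after their values were seen. Orm2 signals on HFD were 585, 491 and 789.9 in KO and 61.8, 131 and 141 in WT livers, so that KO was higher (log2 2.55, adjusted p = 0.00113). The interaction was -6.19 (adjusted p = 5.93e-05). Saa2 on HFD read 1277, 1813 and 1806 in KO and 116, 227 and 263 in WT livers (interaction -5.98, adjusted p = 0.0117), and Lcn2 read 868, 1052 and 833 and 212, 278 and 174 (interaction -4.22, adjusted p = 5.93e-05). The interaction of these 3 genes was called under every alternative. In each, WT livers were high on ND and low on HFD, and KO livers the other way round. Serpina3n did not share this pattern, with an interaction of -0.69 (adjusted p = 0.193).

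**Figure D5:**
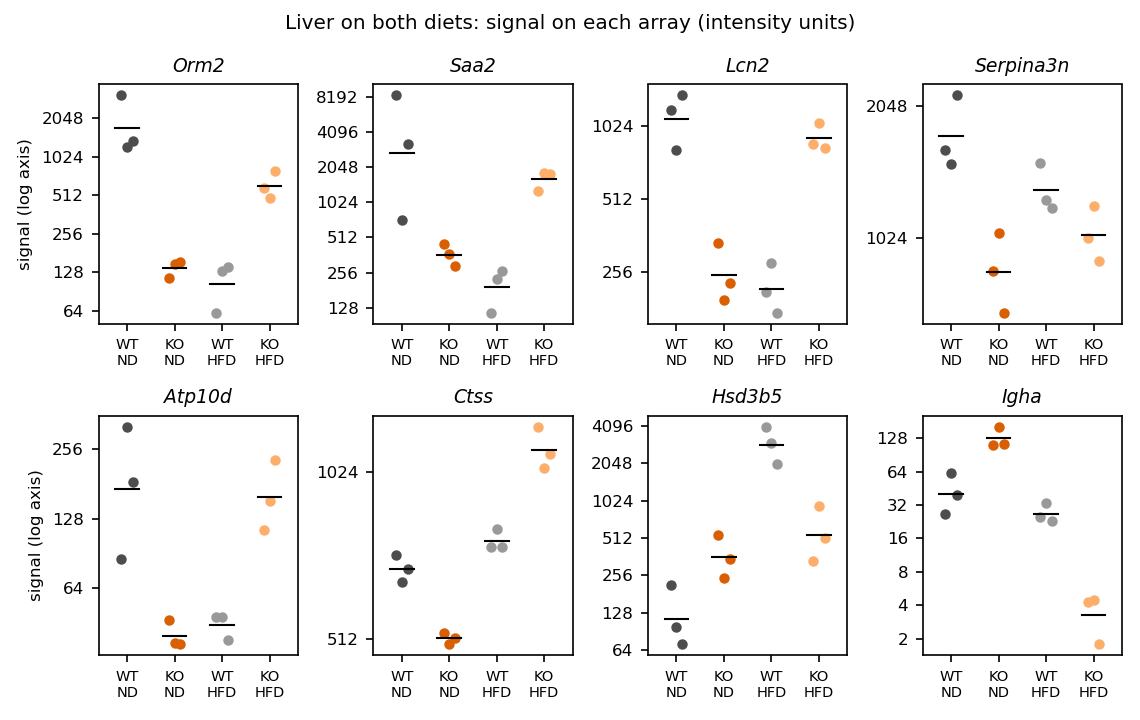
Signal of 8 genes on each liver array (vertical axes, intensity units on log scales that do not start at 0) in WT and KO mice on ND and on HFD, bars marking the geometric mean of 3 mice. Orm2, Saa2 and Lcn2 are lower in KO than in WT on ND and higher on HFD, while Serpina3n is not called on HFD.

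Atp10d, a phospholipid flippase, went from 46.3, 37.1 and 36.5 in KO and 85.8, 319.9 and 185 in WT livers on ND to 114, 153 and 229.8 and 47.9, 48.0 and 37.9 on HFD (interaction -3.96, adjusted p = 0.00789). Igha, the immunoglobulin A heavy chain of plasma cells, read 112, 162 and 114 in KO and 26.3, 61.8 and 39.0 in WT livers on ND (log2 1.67 ± 0.40, adjusted p = 0.0317), lost under 8 of 13 alternatives, among them leaving out WT mouse 686 or 690 or KO mouse 718, 719 or 720. On HFD it read 4.29, 4.42 and 1.78 and 24.9, 33.1 and 22.9 (interaction 4.72, adjusted p = 0.00346, lost when any 1 KO mouse was left out). Hsd3b5 had an interaction of 4.06 (adjusted p = 0.0117). Cidea and Cidec, proteins that enlarge lipid droplets, were not called on ND (adjusted p = 0.787 and 0.19) and had interactions of -7.57 and -3.44 (adjusted p = 0.0157 and 0.0214, both lost without a variance trend and the latter also without KO mouse 718 or 720). Cidea signals on ND were 2.41, 5.20 and 14.5 in KO and 13.3, 0.98 and 4.29 in WT livers, against 1402, 1072 and 844 and 6.10, 7.90 and 1.34 on HFD. Ly6d, a surface protein of epithelial and lymphoid cells, likewise differed on HFD (4.92) and was not called on ND (0.39 ± 0.58, interaction adjusted p = 0.0256, lost without a variance trend, WT mouse 687 or any 1 KO mouse). Of the 29 tested lipid synthesis genes 3 had a called interaction, and the list median was 0.22 on ND and 0.28 on HFD. Mlxipl had an interaction of 1.47 and Acacb of -1.80 (adjusted p = 0.0117 and 0.0187, the former lost without a variance trend and the latter when its probe sets were averaged), while for Cd36 it was -0.65 (adjusted p = 0.298).

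Fat of the same ND mice showed few genotype differences. In fat 32 of 11384 genes (0.281%) were called on ND. Of the 451 genes called in liver and also tested in fat, 5 were called in both tissues, each in the same direction. They were Pik3ap1 and Vamp7, a membrane fusion protein, and Ift140, Ccdc91 and Klhl42. The sperm transcript Prm1 read 366, 266 and 205 in KO fat and 4371, 451 and 4617 in WT fat. In the same order Ift140 read 140, 131 and 124 in KO fat and 301, 197 and 323 in WT fat. Whether the make-up of the fat pieces bears on the differences in fat was not tested. Pik3ap1 differed by 1.95 in fat and 3.22 ± 0.18 in liver. Vamp7 fell from 1247, 1006 and 1309 in WT to 506, 502 and 529 in KO livers (log2 -1.20 ± 0.11, adjusted p = 6.03e-05) and differed by -0.94 in fat. Ccdc91 at 0.56 ± 0.14, Ift140 at -0.66 ± 0.17 and Klhl42 at 1.29 ± 0.31 were called in liver at adjusted p = 0.0404, 0.0464 and 0.0316. None of these 3 calls held without KO mouse 718, KO mouse 719 or WT mouse 687. Ccdc91 and Ift140 each lost theirs under 9 of 13 alternatives, for Ift140 including quantile normalization, and Klhl42 under 7. With its probe sets averaged the liver difference of Ccdc91 turned to -0.80.

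A test of the genotype difference in liver against that in fat called 119 of 10049 genes (1.18%), and 203 with the mouse as a block, since a mouse gave both tissues. In refits of this test only the liver array of a mouse was left out, and no fat array was. Without the liver array of KO mouse 718, KO mouse 720 or WT mouse 687 the unblocked count was 41, 47 and 52. Moxd1 differed by 0.13 in fat (liver minus fat -9.32, adjusted p = 0.00334), Scara5 by -0.05 (liver minus fat -4.497, adjusted p = 0.00443) and Cxcl14 by 0.47 (liver minus fat -5.43, adjusted p = 0.00462). The KO minus WT difference of these 3 genes was thus lower in liver than in fat. For Moxd1 and Cxcl14 its size depends on KO liver signals near or under the floor. For Cd36, Gclc and Abcc3 it was higher in liver, by 1.47, 1.30 and 1.65 (adjusted p = 0.0156, 0.00462 and 0.00339). The call of Cd36 was lost without the liver array of KO mouse 718. Abcc3 stood at -0.44 in fat, where it was not called. Orm1 fell in liver and stood at 1.99 in fat (liver minus fat -2.65, adjusted p = 0.00399). Nectin3, a cell adhesion protein, rose in liver from 346, 176 and 268 to 571, 506 and 518 (log2 1.07 ± 0.21, adjusted p = 0.0141), lost with its probe sets averaged or without KO mouse 718, and stood at -2.35 in fat (adjusted p of the difference 0.01). Its fat signals were 54.4, 42.4 and 55.3 in KO and 786, 96.8 and 222 in WT mice. Nrg4, a growth factor secreted by fat, was lower in KO liver at -1.96 ± 0.49 (adjusted p = 0.0403), lost under 8 of 13 alternatives, among them leaving out WT mouse 687 or 690 or KO mouse 718, 719 or 720. It stood at 1.07 in fat (adjusted p of the difference 0.0312, lost without the liver array of WT mouse 687 or KO mouse 718 or 720).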

How the data were processed

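Total RNA of 24 tissue samples was measured on Affymetrix mouse arrays. The authors deposited linear signal intensity per probe set, computed with MAS5 per the submitters' processing notes, with the version not given in the sources used here. Every array had a trimmed mean of 100.03 to 100.05, and no further scaling was applied. Of 45101 probe sets, 64 controls were left out. GEO's platform annotation of 2016 gave 1 gene symbol to 34945, several to 932 and none to 9160, and the brightest probe set in liver stood for each of 18193 genes. Intensities under the 10th percentile of liver values (1.1) were raised to it, log2 was taken, and genes with a geometric mean of at least 12.95, the median probe set's, were tested. Where a group's mean was below that level, a lower bound is given in place of a fold, from mean log2 values with each array of the dimmer group raised to that level.

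Group means of the 12 liver arrays (4 groups of genotype and diet) were fitted together with limma 3.58.1 in R 4.3.3 with a variance trend, and p-values were adjusted by Benjamini-Hochberg over all tested genes. The other contrasts were the interaction of genotype and diet, and liver minus fat over all 24 arrays. Each mouse gave both tissues, so the pairing was examined. A mouse's 2 arrays deviated from the group means with a correlation of 0.0306 to 0.128, and with the mouse as a block the estimated correlation was 0.064. The procedure was tested on simulated data.

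The genes named were Ffar4, then, among called genes with non-overlapping groups, the 20 that rose most and the 20 that fell most, per list the 4 (or fewer) of smallest p, up to 8 genes each for the interaction, liver against fat and both diets, and genes called in both tissues. Others are given as values. Members, lists and tests were chosen with earlier results of these data known. Lists are described by counts and medians, without a test. As alternatives, arrays were quantile normalized, the filter or the floor was dropped, log2(signal + 16) was used, and a gene's probe sets were averaged. Others were the 6 arrays alone, no variance trend, each of the 6 arrays left out, and the mouse block. Liver against fat was not refitted with log2(signal + 16), averaged probe sets or no variance trend.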

Additional observations from a re-analysis of the deposited data

Results flagged for a closer look

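For 23 of the named genes the genotype difference in liver (KO minus WT, log2) differed between ND and HFD (interaction test in limma, adjusted p under 0.05). Over all genes, 111 of 11121 (0.998%) did. Up to 8 genes were named because this test called them, so the count of named genes is not to be compared with that share. The ND difference lay below the HFD difference for 15 of them: Acacb (-1.80), Atp10d (-3.96), Cidea (-7.57), Cidec (-3.44), Ctss (-0.96), Ddit4 (-3.49), Gpt2 (-0.94), Lcn2 (-4.22), Lgals1 (-2.19), Ly6d (-4.54), Orm2 (-6.19), Psmb8 (-1.25), Psmb9 (-1.75), Saa2 (-5.98) and Vamp7 (-1.19). It lay above for 8: Cyp4a31 (1.61), Ern1 (1.07), Fkbp4 (1.04), Hsd3b5 (4.06), Igha (4.72), Inhbc (1.33), Mcm7 (0.80) and Mlxipl (1.47). The interaction was called under every alternative for 8 genes, Atp10d, Ctss, Hsd3b5, Lcn2, Lgals1, Orm2, Saa2 and Vamp7. Cyp4a31 and Acacb lost it only with the mean of their probe sets, Mlxipl and Cidea only without a variance trend, and the other 11 without at least 1 array.

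For 20 named genes the genotype difference on ND differed between liver and fat, where 119 of 10049 genes (1.18%) did. The liver difference lay below the fat difference for 14: Col4a2 (-1.59), Cpne2 (-3.02), Cxcl14 (-5.43), Enho (-2.39), Fh1 (-0.94), Idh3a (-0.996), Moxd1 (-9.32), Nrg4 (-3.03), Orm1 (-2.65), Pnpla2 (-1.02), Psmb8 (-1.13), Psmb9 (-1.37), Scara5 (-4.50) and Tgfbi (-0.86). It lay above for 6: Abcc3 (1.65), Cd36 (1.47), Gclc (1.30), Nectin3 (3.41), Pik3ap1 (1.27) and Spc25 (2.63). These calls were kept under every alternative for 11 of the 20 genes. Cd36 lost its call without the liver array of KO mouse 718. Nrg4 and Spc25 lost theirs without the liver array of WT mouse 687 or KO mouse 718 or 720, and Pik3ap1 without that of WT mouse 686 or 690 or KO mouse 718 or 720. Cpne2, Enho, Idh3a, Pnpla2 and Psmb9 lost theirs without the liver array of KO mouse 718 or WT mouse 687, among others.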

How the results depend on the processing

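With 3 mice per group the number of calls depended on the processing and on single mice, while the median of all genes moved by under 0.1. The 527 calls became 302 with each gene's probe sets averaged (140 higher, 162 lower), 336 with the 6 arrays alone (155 and 181) and 271 without a variance trend (121 and 150). Leaving out 1 array gave 195 to 564 (88 to 311 higher and 97 to 253 lower). The interaction count of 111 became 59 without the filter, 55 with the mean of probe sets and 31 without a variance trend, and 35 to 121 without 1 array. The count of 119 for liver against fat became 203 with the mouse as a replicate block, which ended no call of a gene named, and 41 to 143 without 1 liver array. Of 94 named called genes 40 stayed called under every alternative, and 91 of all 527 did.

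With the mean of probe sets the direction turned for Abca1 (0.0782), Ccdc91 (-0.80), Cela3b (0.19), Fabp4 (-0.11), Fkbp4 (-0.000969), Flt4 (-0.11), Parp14 (0.13), Prss2 (0.10), Rora (-0.12) and Xaf1 (0.30), of which Ccdc91, Fkbp4, Parp14 and Xaf1 had been called. Without 1 array it turned for genes that were not called, whose values then ranged from -0.42 to 1.38 for Cidea, -0.16 to 0.51 for Gzma, -0.24 to 0.69 for Lpl, -1.26 to 0.18 for Ms4a1, -0.34 to 0.80 for S100a9 and -0.0325 to 0.79 for Sox9. The cause was not tested. The median of 13 of 31 lists changed its sign under at least 1 alternative. Genes under the filter level, Ffar4 among them, are limited by the signal over background.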

Other observations

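Several strongly expressed genes outside the lists also differed, and they are named here after their values were seen. Nnmt, which methylates nicotinamide, read 1489.8, 1942 and 1206 in KO and 5331, 4206 and 4654 in WT livers on ND, without overlap (log2 -1.63 ± 0.26, limma adjusted p = 0.00516). Fgl1, a fibrinogen-like protein secreted by hepatocytes, fell from 6769, 6965 and 8568 in WT to 3719, 3312 and 2038 in KO livers (log2 -1.34 ± 0.19, adjusted p = 0.00269). St3gal5, the synthase of the ganglioside GM3, stood at -1.04 ± 0.16 (adjusted p = 0.0034). Adh4, an alcohol dehydrogenase that also acts on retinol, rose from 1028, 609 and 869 in WT to 2044, 1595 and 1959 in KO livers (log2 1.18 ± 0.17, adjusted p = 0.00262). Rdh16, a retinol dehydrogenase, rose by 1.40 ± 0.19 (adjusted p = 0.00143). Asic5, an ion channel known from bile ducts and brain, read 729.9, 935 and 698 in KO and 235, 240.2 and 151 in WT livers (log2 1.94 ± 0.22, adjusted p = 0.000439). These 6 kept their call under every alternative. On HFD the differences were -1.13 for Nnmt, -0.81 for Fgl1, -0.51 for St3gal5, 0.60 for Adh4, 1.03 for Rdh16 and 0.02 for Asic5.

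Car3, carbonic anhydrase 3, a strongly expressed gene, rose, with 10577, 8311 and 10234 in KO and 4042, 889 and 3695 in WT livers (log2 2.03 ± 0.41, adjusted p = 0.016), a call lost without a variance trend or without KO mouse 718 or 720. Vldlr, the receptor for very low density lipoprotein, which lies 80 genes before Ffar4 on chromosome 19, read 286, 168 and 209.8 in KO and 47.1, 73.0 and 79.9 in WT livers (log2 1.73 ± 0.34, adjusted p = 0.0135), a call lost without KO mouse 718. On HFD it differed by 2.64 (adjusted p = 0.000614). Slc22a30, an organic anion transporter gene of chromosome 19, rose by 1.81 ± 0.30 (adjusted p = 0.0055), a call kept under every alternative. Lipa, lysosomal acid lipase, which lies 29 genes before Ffar4 on chromosome 19, rose by 0.63 ± 0.10 (adjusted p = 0.00553), likewise kept.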
